A study of Mus musculus with 32 samples.

Results

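The 6 bisphenol-exposed cultures were set against 2 solvent controls at the stages of a mouse stem cell differentiation that precede its branching into a global and a neural course. The members are all libraries labelled as embryonic stem cells (ESCs) of day 0 or embryoid bodies (EBs, the free-floating balls in which ESCs differentiate) of day 4, which are 8 of the 32 libraries of the series. J1 ESCs, a line from mouse strain 129S4/SvJae, were the source of every library. EBs of day 4 were exposed to 100 nM bisphenol A (BPA), 100 nM bisphenol F (BPF) or 100 nM bisphenol S (BPS), or received the solvent dimethyl sulfoxide (DMSO) alone, and ESCs of day 0 received the same 4 treatments. Each combination of stage and treatment is 1 library, so 3 bisphenol libraries stand against 1 DMSO library at each stage. The labels give no replicate cultures, and p-values therefore measure only the spread between these samples, which may be technical. When exposure began is not given in the sources used here.

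Bisphenols are pairs of phenol rings joined by a short bridge, and BPA is known as a weak agonist of the nuclear oestrogen receptors and a ligand of the oestrogen-related receptor gamma. In BPA the bridge is a carbon that carries methyl groups, in BPF a methylene group and in BPS a sulfonyl group. When ESCs leave the naive state and aggregate, they switch off naive factors such as Klf4, Klf5, Esrrb and Tfcp2l1, pass through an epiblast-like state with Fgf5, Otx2 and Dnmt3b, and an outer layer of primitive endoderm forms that lays down basement membrane of laminins, type IV collagen and perlecan.

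The 8 libraries held 10202208 to 10764870 expected counts (reads per gene as estimated by the authors' quantification) and 16356 to 16617 listed genes. Levels are given as deposited FPKM (fragments scaled to transcript length and library depth), and log2 changes are edgeR estimates on the counts ± SE, bisphenols over DMSO. A gene was called when its p in edgeR's quasi-likelihood test, adjusted over the 13931 genes tested by the Benjamini-Hochberg method, lay under 0.05. The summed level of 10 markers of pluripotent stem cells was 1520 to 1750 FPKM in the bisphenol EBs, against 1660 FPKM in the DMSO EBs, and 4850 to 4980 FPKM in the bisphenol ESCs, against 5190 FPKM in the DMSO ESCs. The sum of 10 feeder fibroblast markers was 29.8 to 33.6 FPKM in the bisphenol EBs, against 30.7 FPKM in the DMSO EBs, with Lum listed at 0 in all 4. It was 6.79 to 8.54 FPKM in the bisphenol ESCs, against 6.52 FPKM in the DMSO ESCs, with Dcn listed at 0.

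The first question was which genes differed between all bisphenol libraries and the DMSO libraries of both stages together. A single gene was called of 13931 (0.00718%). This was Cubn (Entrez 65969, GRCm38 chromosome 2, 13276338 to 13491876), which encodes cubilin, an uptake receptor of visceral endoderm, kidney and gut. Cubn stood at 0.44 FPKM with BPA, 0.50 with BPF and 0.67 with BPS in EBs, against 1.69 FPKM with DMSO. In ESCs it was nearly silent, at 0.01 to 0.02 FPKM with bisphenols, against 0.01 FPKM with DMSO. The change over both stages was -1.59 ± 0.22 (adjusted p = 0.031), and it came from the EBs, where the bisphenol libraries all lay below the DMSO library. Without the DMSO library of EB day 4 the estimate for Cubn was 0.91 and no gene was called. Without the DMSO library of ESC day 0, which leaves the contrast to the EBs, 260 genes were called. A further 4 genes had the smallest p-values after Cubn without being called: Thbs1 (adjusted p = 0.1), Apob, Rpl37rt and Amot (0.4 to 0.43). At an unadjusted p under 0.05 there were 554 of the 13931 genes, a share below 0.05. DESeq2 called the ribosomal protein gene Rpl37rt alone, as higher by 0.51. After a correction for transcript length no gene was called.

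The stages were then taken apart. In EBs of day 4, 301 genes were called (2.16% of those tested), of which 273 were lower with bisphenols (1.96%) and 28 higher (0.201%). In ESCs of day 0 no gene was called (0%), and the smallest adjusted p was 1. Unadjusted p-values under 0.05 were reached by 1892 of 13931 genes in EBs, a share above 0.05, and by 429 in ESCs, a share below it. DESeq2 called 182 genes in EBs and 0 in ESCs. Libraries also stood apart by stage: over 9201 genes above 10 CPM, the root mean square log2 distance of bisphenol to DMSO libraries was 0.206 to 0.226 in EBs, against 0.158 to 0.175 among the bisphenol EBs. In ESCs the same distances were 0.127 to 0.157 between bisphenol and DMSO libraries and 0.134 to 0.154 among bisphenol libraries. Once each library's trend with transcript length was removed, EB distances were 0.183 to 0.194 to DMSO and 0.156 to 0.171 among bisphenol libraries. In ESCs they were then 0.127 to 0.139 and 0.133 to 0.138. With 1 DMSO library a stage, the treatment and any other difference of the DMSO EBs from the bisphenol EBs cannot be told apart.

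The EB change followed transcript length. With the genes in 10 equal bins of length, the median log2 change at EB day 4 was 0.09 for transcripts of 77 to 1162 bases, 0.02 in the fifth bin and -0.22 for those of 6067 to 83437 bases. In the longest bin 85% of genes were below 0, and that bin held 195 of the 273 genes called lower. The shortest bin held 12 of the 28 genes called higher. The median length was 8344 bases for the genes called lower, 1410 bases for those called higher and 2829 bases for all genes tested. Coding length separated the genes called lower more than the 3′ untranslated region did. The median coding length was 6256 bases in the genes called lower and 1425 bases over all genes with a matched transcript, and the median 3′ untranslated region was 1268 and 954 bases. Across the 10971 genes with such a transcript, Spearman's rho of the EB change was -0.33 with coding length, -0.13 with 3′ untranslated length and -0.07 with GC content. These rank correlations are descriptions across genes, which share their libraries and are not independent replicates.

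Each library was therefore placed by itself. The median log2 ratio to DMSO in the longest bin minus that in the shortest was -0.40 for BPA, -0.30 for BPF and -0.22 for BPS in EBs. In ESCs the same difference was 0.00 for BPA, 0.06 for BPF and 0.25 for BPS. The slope thus had opposite directions at the 2 stages for BPF and BPS, and was absent for BPA in ESCs. Set against the mean of the 4 libraries of a stage, the difference was -0.16 for BPA, -0.06 for BPF and 0.00 for BPS EBs, and 0.22 for the DMSO EBs. Since 3 of the 4 libraries are bisphenol libraries, these values restate the comparison with DMSO on another scale. Among ESCs the BPS library stood at 0.15 and the other libraries between -0.07 and -0.01. What sets these library trends was not tested.

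**Figure D1:**
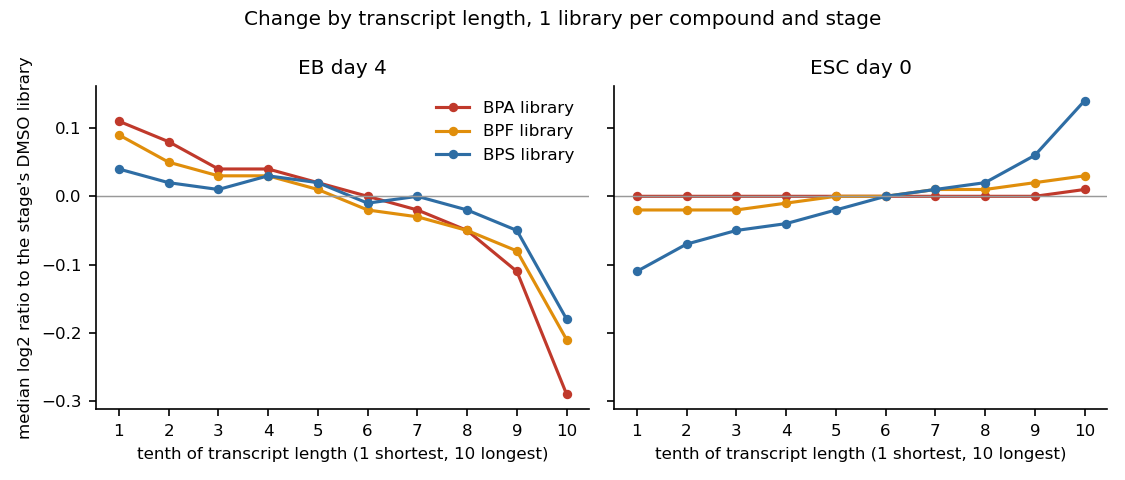
Median log2 ratio of each bisphenol library to the DMSO library of its stage, in 10 equal bins of transcript length from the shortest (1) to the longest (10), for EB day 4 and ESC day 0. In EBs all 3 lines end below 0, at -0.29 for BPA, -0.21 for BPF and -0.18 for BPS, while in ESCs BPS ends at 0.14 and BPA at 0.01.

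Each EB change was refitted with a length correction, in which a smooth curve of log2 ratio on log2 length was removed from every library. This brought the medians of the 10 bins to between -0.01 and 0.01 and left 119 genes called (0.854%), 96 lower (0.689%) and 23 higher (0.165%). Both fits called 103 genes, 90 of them lower in both and 12 higher in both. The exception was Kcnq1ot1, the long noncoding RNA of the imprinted Kcnq1 domain, whose listed transcript of 83437 bases is the longest tested. Kcnq1ot1 stood at 0.44, 0.68 and 0.52 FPKM in the BPA, BPF and BPS EBs, against 0.87 FPKM in the DMSO EBs. Its change was -0.69 ± 0.14 (adjusted p = 0.0091) as counted and 0.54 (adjusted p = 0.011) after the correction, so its direction depends on the correction. In the corrected fit 6 genes were lower and 11 higher, Kcnq1ot1 among these, without a call in that direction as counted. Dnmt3b, the de novo DNA methyltransferase of the epiblast, was another of the higher genes, at 335, 330 and 369 FPKM in bisphenol EBs against 286 FPKM in DMSO EBs. Dnmt3b, named after its values were seen, changed by 0.29 (adjusted p = 0.044) with the correction and by 0.25 ± 0.08 (adjusted p = 0.14) without it. The correction used total length, and none was made for coding length. Genes lower in both fits had median coding and 3′ untranslated lengths of 5502 and 792 bases, where a transcript was matched. For the 11 genes higher only with the correction these were 2571 and 7616 bases, and over all genes 1425 and 954. Whether calls kept after the correction follow coding length was not tested.

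**Figure D2:**
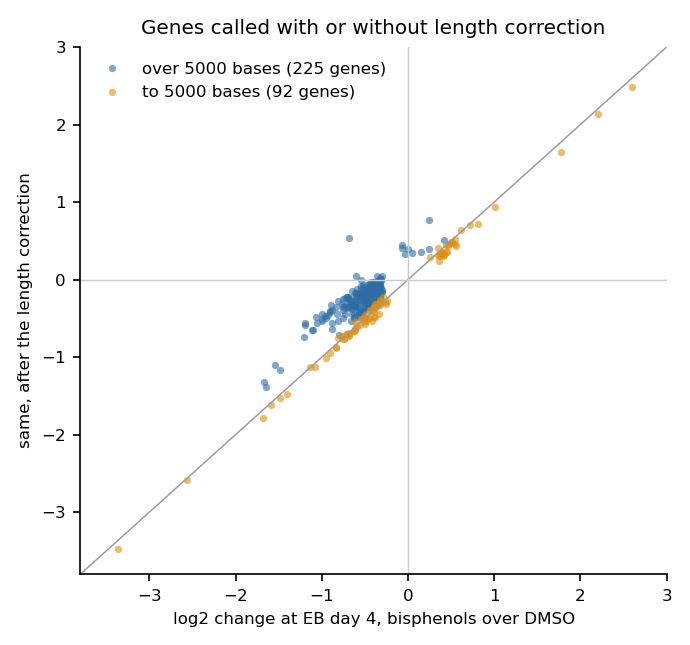
Log2 change at EB day 4, bisphenols over DMSO, as counted (horizontal axis) and after the length correction (vertical axis) for the 317 genes called in either fit, with the diagonal marking equal values. The 225 genes with transcripts over 5000 bases lie mostly above the diagonal, closer to 0 for most lower genes, while the 92 shorter genes lie near it, and 2 genes fall outside the axes.

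The smallest p-values in EBs belonged to long transcripts. Lrp2 (Entrez 14725, chromosome 2, 69424335 to 69586029), the megalin uptake receptor that partners cubilin, stood at 15.4, 16.9 and 17.0 FPKM with BPA, BPF and BPS, against 32.4 FPKM with DMSO. The bisphenol EBs lay close together at about the same level, below the DMSO EBs. The change was -1 ± 0.08 (adjusted p = 1.2e-06) and -0.51 (adjusted p = 2.5e-04) after the length correction, beside a median of -0.22 for its bin of length. That bin has a median length of 7483 bases, while the Lrp2 transcript has 15467. In ESCs Lrp2 was at 1.29, 1.28 and 1.67 FPKM with BPA, BPF and BPS, against 1.31 FPKM with DMSO. Ubr4 (Entrez 69116, chromosome 4, 139380659 to 139489533), a ubiquitin ligase of the N-degron pathway, stood at 10.8, 12.6 and 11.8 FPKM with BPA, BPF and BPS, against 24.2 FPKM with DMSO. It fell by 1.06 as counted (adjusted p = 2.7e-05) and by 0.56 with the correction (adjusted p = 2.5e-04). Cubn was lower by -1.67 ± 0.20 in EBs (adjusted p = 5.0e-05) and by -1.32 with the correction (adjusted p = 8.9e-04). Apob, the lipoprotein component made by visceral endoderm and liver, was at 0.13, 0.16 and 0.20 FPKM against 0.48 FPKM with DMSO, and its change of -1.54 (adjusted p = 0.0059) became -1.10 with the correction (adjusted p = 0.078).

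Several extracellular matrix genes were lower in bisphenol EBs. Of 33 tested members of the matrix list 8 fell and none rose, beside 1.96% of all genes called lower, with 31 below 0 and a median of -0.36, beside -0.01 over all genes. The list is made of long genes, with a median length of 5060 bases. After the length correction 6 members were lower and the median was -0.29, beside 0 over all genes. In bulk samples such as these, fewer cells of a type and less RNA per cell cannot be told apart. Hspg2 (Entrez 15530, chromosome 4, 137468751 to 137570630) encodes perlecan, the heparan sulfate proteoglycan of basement membranes. It stood at 14.3, 16.8 and 16.9 FPKM in BPA, BPF and BPS EBs, against 33.9 FPKM in DMSO EBs, a change of -1.10 ± 0.11 (adjusted p = 2.0e-05) and of -0.65 with the correction (adjusted p = 8.7e-05). In ESCs Hspg2 was at 19.9, 19.3 and 25.9 FPKM with BPA, BPF and BPS, against 19.4 FPKM with DMSO, so the low values in EBs had no counterpart there.

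Fibronectin, which links cells to their matrix through integrins, had the same pattern. Fn1 (Entrez 14268, chromosome 1, 71585473 to 71653280) stood at 35.3, 34.4 and 33.5 FPKM in bisphenol EBs, against 62.5 FPKM in DMSO EBs. In ESCs it was at 166, 171 and 208 FPKM with bisphenols, against 167 FPKM with DMSO. Fn1 fell by 0.88 in EBs (adjusted p = 2.7e-05) and by 0.64 with the correction (adjusted p = 2.5e-04). The laminin chain gene Lama5 (Entrez 16776, chromosome 2, 180176373 to 180225904) was at 13.8, 16.9 and 16.1 FPKM with bisphenols, against 25.9 FPKM with DMSO, and stayed called with the correction (-0.39, adjusted p = 0.0033). Lamb1, another laminin chain, was at 33.2, 33.6 and 34.5 FPKM against 45.9 FPKM with DMSO, and Thbs1, a matrix glycoprotein that acts on cell adhesion, at 28.5, 31.4 and 29.6 FPKM against 40.6 FPKM. Both were lower by -0.46 as counted, and by -0.35 and -0.34 with the correction, with adjusted p of 0.0081 and 0.0091. For Lamc1, Nid1 and Col4a1, which complete the laminin trimer, bridge it to collagen and form the collagen net, the fall as counted (-0.41, -0.61 and -0.36) was not called after the correction. Spp1, the secreted phosphoprotein osteopontin, was called only with it, at -0.50 (adjusted p = 0.03), with 20.0, 17.2 and 16.4 FPKM in bisphenol EBs against 24.1 FPKM in DMSO EBs. Lamb1, Lamc1, Nid1 and Spp1 are the other called members and were added to the named genes after their values were seen.

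Markers of primitive and visceral endoderm, the EB cell type that makes much of this matrix, were also mostly lower in bisphenol EBs. The marker list shares Col4a1 with the matrix list, so the lists are not separate evidence. The summed level of the 15 markers was 24.3, 24.1 and 28.2 FPKM in the BPA, BPF and BPS EBs, against 36.4 FPKM in the DMSO EBs, and 13 of the 15 were highest in the DMSO EBs. None was listed at 0, but 9 of the 15 were under 1 FPKM in every EB library. In ESCs the sum was 32.9, 34.1 and 37.6 FPKM with bisphenols, against 32 FPKM with DMSO, with Ttr listed at 0. Of the 9 markers tested 2 fell in EBs, Cubn and Col4a1, beside 1.96% of all genes called lower. All 9 were below 0 with a median of -0.72. With the correction Cubn alone remained called and the median was -0.75. The part of endoderm cells in the matrix and uptake receptor results was not tested.

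**Figure D3:**
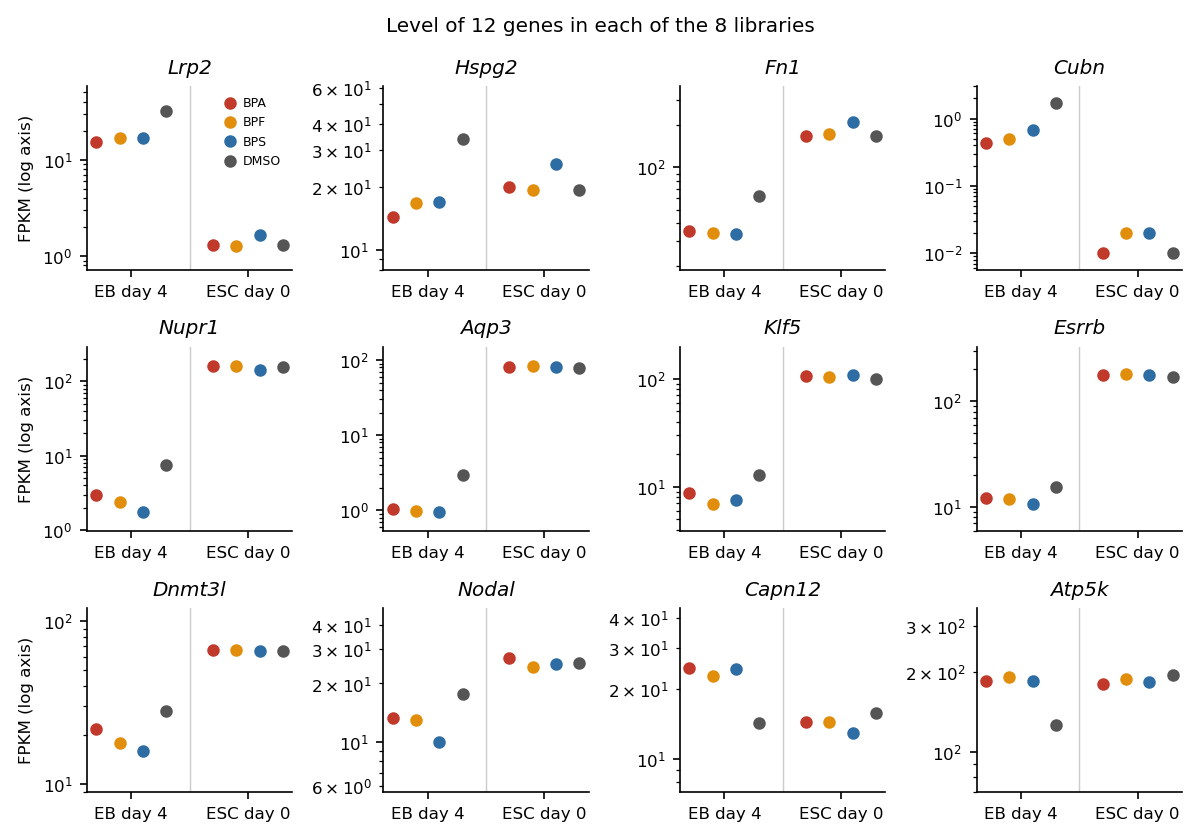
FPKM (log axis) of 12 genes in each of the 8 libraries, with EB day 4 left of ESC day 0 and BPA, BPF, BPS and DMSO from left to right within a stage, 1 point a library. In EBs the DMSO point lies above the 3 bisphenol points for Lrp2 to Nodal and below them for Capn12 and Atp5k, while in ESCs the 4 points lie close together for most genes.

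Another set of genes fell without being long. Among the 273 genes called lower, 57 had transcripts of up to 5000 bases, and 41 of them were also lower with the correction. Among them was Nupr1 (Entrez 56312, chromosome 7, 126623246 to 126625470, 639 bases), a stress-induced chromatin-associated protein. Nupr1 stood at 2.99, 2.38 and 1.73 FPKM in BPA, BPF and BPS EBs, against 7.5 FPKM in DMSO EBs. In ESCs it was at 160, 161 and 143 FPKM with bisphenols, against 155 FPKM with DMSO, so the gene was strongly expressed in all ESCs and had mostly gone by day 4. The change in EBs was -1.68 ± 0.31 (adjusted p = 0.0033) and -1.78 with the correction. Aqp3, a glycerol and water channel (Entrez 11828, chromosome 4, 41092724 to 41098183), showed the same shape, with 1.05, 0.97 and 0.94 FPKM in bisphenol EBs against 2.96 FPKM in DMSO EBs, and 79.9, 83.2 and 80.2 FPKM in bisphenol ESCs against 78.8 FPKM in DMSO ESCs. Its change was -1.59 ± 0.25 (adjusted p = 9.6e-04). Ndufa4l2, a mitochondrial protein induced in hypoxia, stood at 4.10, 3.12 and 3.10 FPKM in bisphenol EBs against 9.02 FPKM in DMSO EBs, a change of -1.41 (adjusted p = 7.4e-04). Laptm5, a lysosomal membrane protein, stood at 4.01, 3.91 and 3.13 FPKM in bisphenol EBs, against 6.51 FPKM in DMSO EBs, and fell by 0.84 (adjusted p = 0.0041). Aqp3, Ndufa4l2 and Laptm5 were named after their values were seen.

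These shorter genes were placed by how each gene changes as ESCs differentiate, taken from the 4 libraries of EB day 6 against the 4 of ESC day 0, none of which is a library of EB day 4. Of the 57 genes, 40 (70.2%) had fallen by more than 2-fold between ESC day 0 and EB day 6, beside 17.4% of all genes, and 3 had risen by as much. Of the 216 longer genes called lower 54 (25%) had fallen so, and of the 28 called higher 1. Over all genes with transcripts of up to 5000 bases, the median bisphenol change at EB day 4 was -0.27 for the 623 that fell more than 8-fold with differentiation, -0.08 for the 1462 that fell 2- to 8-fold and 0.03 for the 7715 within 2-fold. It was 0.02 and -0.01 for those that rose. From the falling groups to the group within 2-fold, the order was seen in each compound. Genes that fell more than 8-fold had medians of -0.19 with BPA, -0.15 with BPF and -0.38 with BPS. With BPF, genes that rose over 8-fold lay at -0.04, level with those that fell 2- to 8-fold. Calls followed the order of the falling groups, with 22 of those 623 lower and none higher (3.53% lower), against 14 lower and 22 higher among the 7715. The medians changed by at most 0.03 with the length correction (-0.30, -0.09, 0.02, 0.02 and -0.01 in the same order). In ESCs the bisphenol change of these groups was -0.01, -0.01, -0.02, 0.01 and 0.08. The grouping was chosen after the data were seen and carries no test.

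**Figure D4:**
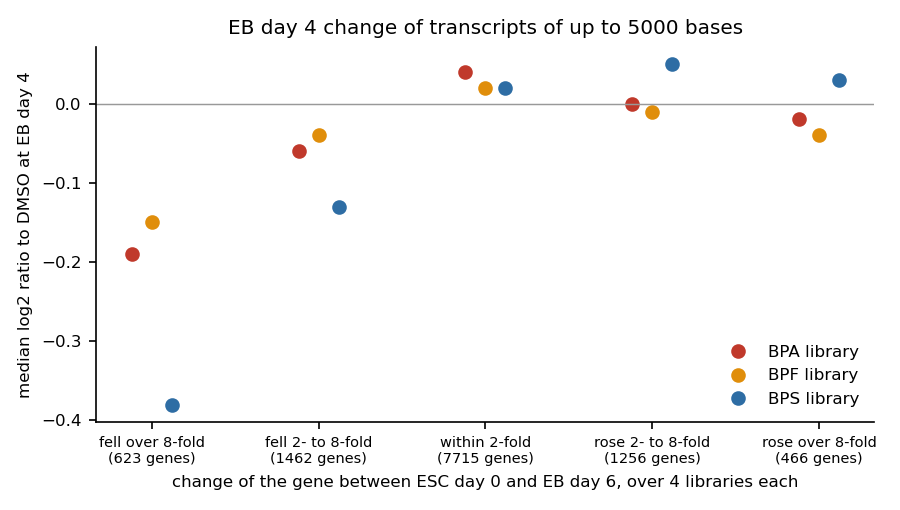
Median log2 ratio of each bisphenol library to the DMSO library at EB day 4 for genes with transcripts of up to 5000 bases, grouped by their change between ESC day 0 and EB day 6 (4 libraries each). The group that fell over 8-fold lies lowest for all 3 compounds, at -0.19 for BPA, -0.15 for BPF and -0.38 for BPS, and the group within 2-fold lies at 0.02 to 0.04.

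Naive pluripotency factors lay on that side. Of 30 tested members 3 fell in EBs and none rose, beside 1.96% of all genes called lower. In all 27 were below 0 and the median was -0.16, beside -0.01 over all genes, with -0.18 and 2 called after the correction. Klf5 (Entrez 12224, chromosome 14, 99298691 to 99313412), a zinc finger factor of the naive network, stood at 8.76, 6.94 and 7.46 FPKM in bisphenol EBs, against 12.7 FPKM in DMSO EBs. In ESCs it was at 106, 104 and 109 FPKM with bisphenols, against 99.0 FPKM with DMSO, the lowest of the 4. The EB change was -0.74 ± 0.13 (adjusted p = 0.0034) and -0.77 with the correction (adjusted p = 0.0041). Esrrb (Entrez 26380, chromosome 12, 86361117 to 86521628), an orphan receptor of the oestrogen-related family that sustains self-renewal, stood at 12.1, 11.9 and 10.6 FPKM in bisphenol EBs, against 15.4 FPKM in DMSO EBs. It fell by 0.44 (adjusted p = 0.017) and by 0.40 with the correction (adjusted p = 0.044). In ESCs Esrrb was at 176, 181 and 178 FPKM with bisphenols, against 171 FPKM with DMSO. Tfcp2l1, a further naive factor with a transcript of 9285 bases, was lower at -0.61 (adjusted p = 0.024), but not called after the correction (-0.33, adjusted p = 0.34). The core factors were not called. Pou5f1 stood at 465, 452 and 421 FPKM in bisphenol EBs against 384 FPKM in DMSO EBs (0.20, adjusted p = 0.33), Nanog at 79.1, 84.5 and 82.9 FPKM against 88.4 FPKM, and Sox2 at 86.9, 84.5 and 82.2 FPKM against 83.8 FPKM.

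In the epiblast-like list 3 of 26 members fell and none rose, with a median of -0.07, beside the same 1.96% and -0.01 over all genes. With the correction 3 members were lower and 1 higher, beside 0.689% and 0.165% of all genes, and the median was -0.05. Dnmt3l (Entrez 54427, chromosome 10, 78042287 to 78063622), the cofactor of the de novo DNA methyltransferases, stood at 21.7, 18.0 and 16.0 FPKM in bisphenol EBs, against 28.3 FPKM in DMSO EBs. Its ESC levels were within 65.9 to 67.0 FPKM with bisphenols and 65.2 FPKM with DMSO. The change in EBs was -0.63 ± 0.12 (adjusted p = 0.0054) and -0.67 with the correction (adjusted p = 0.0033). The formative markers Fgf5, Otx2 and Pou3f1 were not called, at 52.6 to 61.8 FPKM against 48.7 FPKM, 158 to 170 FPKM against 154 FPKM and 36.6 to 42.4 FPKM against 43.2 FPKM.

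Nodal and its inhibitor Lefty1, of the pathway that patterns the epiblast, were both lower. Nodal, the ligand (Entrez 18119, chromosome 10, 61417972 to 61425338), stood at 13.4, 13 and 10 FPKM in bisphenol EBs, against 17.6 FPKM in DMSO EBs. Lefty1, its secreted inhibitor and target, was at 33.4, 32.3 and 27.7 FPKM against 43.1 FPKM. In both genes the BPS library was the lowest and the DMSO library the highest. Nodal fell by 0.56 (adjusted p = 0.024) and Lefty1 by 0.49 (adjusted p = 0.01), and both kept their call with the correction (-0.59 and -0.53). Of the 27 tested genes of FGF, Nodal and BMP signalling 3 fell and none rose, beside 1.96% of all genes called lower. Their median was -0.10, and -0.12 with the correction.

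Of 35 hypoxia and glycolysis genes 4 fell and none rose, beside 1.96% of all genes called lower, with 28 below 0 and a median of -0.13, or -0.12 with the correction. Hexokinase gene Hk2 stood at 19.7, 19.2 and 19.6 FPKM in bisphenol EBs against 26.4 FPKM in DMSO EBs, and fell by 0.45 (adjusted p = 0.0023) and by 0.35 with the correction (adjusted p = 0.023). Ndrg1, a hypoxia-induced stress gene, stood at 3.5, 3.49 and 4.16 FPKM against 5.89 FPKM and fell by 0.68 (adjusted p = 0.0081), and by 0.69 with the correction. The glucose transporter gene Slc2a3, named after its values were seen, stood at 149, 137 and 152 FPKM against 182 FPKM and fell by 0.34 (adjusted p = 0.03), with -0.31 after the correction (adjusted p = 0.038). P4ha1, a collagen prolyl hydroxylase subunit, was lower as counted (-0.36, adjusted p = 0.041) but not with the correction (adjusted p = 0.092). Bisphenol EBs lay below the DMSO EBs in each of these 4 genes, as they did in all 273 genes called lower.

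In several other lists most of the called genes were long and were not called with the correction. Over all genes 1.96% were called lower as counted and 0.689% with the correction. Of 16 long neural genes 5 fell as counted, with a median of -0.34, and 1 with the correction, with a median of -0.04. That gene was Dst, the cytoskeletal linker dystonin, at 3.13, 6.01 and 4.79 FPKM in bisphenol EBs against 9.96 FPKM in DMSO EBs, a change of -1.19 (adjusted p = 0.0012) and -0.59 with the correction (adjusted p = 0.032). Macf1, a linker of actin and microtubules, was at -0.33 (adjusted p = 0.096) with the correction, and Syne2, a nuclear envelope linker called at -0.60 as counted, at 0.04 (adjusted p = 0.94). Of 34 cell cycle genes 3 fell, Mki67, Cenpf and Cenpe, with transcripts of 10098, 11130 and 7813 bases, while the list median was 0.04. Mki67, the proliferation marker Ki-67, stood at 34.2, 36.7 and 39.3 FPKM in bisphenol EBs, against 55.8 FPKM in DMSO EBs, and was also lower with the correction, at -0.31 (adjusted p = 0.03). The actin and YAP target list had 3 of 25 lower, Thbs1, Flna and Myh9, with a median of -0.15, and Flna, the actin crosslinker filamin A, was no longer called with the correction (-0.24, adjusted p = 0.095). Fasn and Srebf2, of 29 cholesterol and lipid synthesis genes with a median of -0.05, fell by 0.50 and 0.29 as counted and were not called with the correction (adjusted p of 0.3 and 0.13). Nes, an intermediate filament of neural precursors and the single called gene of 12 early neuroectoderm genes, fell by 0.40 (adjusted p = 0.005), with an adjusted p of 0.069 after the correction. Lgr4, a Wnt pathway receptor and the single called gene of 13 Wnt targets, was lower at -0.33 (adjusted p = 0.048) and not called with the correction (adjusted p = 0.19).

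Imprinted genes and genes of DNA methylation gave mixed results. Of 27 imprinted genes 6 fell, beside 1.96% of all genes called lower, with a median of -0.14. After the correction 2 were lower and 1 higher, beside 0.689% and 0.165% of all genes, with a median of -0.04. The noncoding RNA H19 stood at 29.8, 34.3 and 38.5 FPKM in bisphenol EBs, against 48.0 FPKM in DMSO EBs, and fell by 0.51 (adjusted p = 0.024) and by 0.54 with the correction (adjusted p = 0.022). Igf2r, the receptor that clears the growth factor Igf2, stood at 9.44, 9.19 and 9.58 FPKM against 14.2 FPKM and fell by 0.62 (adjusted p = 7.1e-04), or by 0.35 with the correction (adjusted p = 0.033). Peg3, Peg10 and Grb10 were lower as counted only. Of 17 genes of DNA methylation, with a median of 0, Tet1 and Dnmt3l fell, beside the same 1.96% of all genes. After the correction 1 of the 17 was lower and 1 higher, beside the same 0.689% and 0.165%, with a median of 0.02. Tet1, a dioxygenase that oxidises methylcytosine and has a transcript of 14082 bases, stood at 4.78, 5.46 and 5.30 FPKM against 8.30 FPKM, and its change of -0.70 (adjusted p = 7.0e-04) became -0.25 (adjusted p = 0.13). The maintenance methyltransferase gene Dnmt1 (-0.16) and its partner Uhrf1 (0.01) were not called.

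Genes higher in bisphenol EBs were few and mostly short. Capn12 (Entrez 60594, chromosome 7, 28881465 to 28893585), a calcium-dependent protease, stood at 24.6, 22.6 and 24.3 FPKM with BPA, BPF and BPS, against 14.3 FPKM with DMSO. In ESCs it was at 14.5, 14.5 and 13 FPKM with bisphenols, against 15.7 FPKM with DMSO, the highest of the 4. The change in EBs was 0.72 ± 0.10 (adjusted p = 4.7e-04) and 0.71 with the correction. Bex4, a small X-linked protein gene, stood at 160, 174 and 168 FPKM against 113 FPKM and rose by 0.55 (adjusted p = 0.001), with 0.46 after the correction (adjusted p = 0.003). The kinase gene Pim2, named after its values were seen, stood at 269, 272 and 303 FPKM against 194 FPKM and rose by 0.51 (adjusted p = 0.0015). In the list of 18 metallothioneins and heat shock proteins 1 gene rose and 1 fell, beside 0.201% and 1.96% of all genes. Hspe1, the mitochondrial co-chaperonin, stood at 338, 340 and 336 FPKM against 244 FPKM and rose by 0.45 (adjusted p = 0.0028). Hspb1, a small heat shock protein, stood at 141, 151 and 128 FPKM against 182 FPKM and fell by 0.40 (adjusted p = 0.013).

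Of 65 respiratory chain genes tested 3 rose and none fell, beside 0.201% of all genes called higher. The list has a median length of 657 bases, 9 members were below 0 and the median change was 0.14, beside 0.09 for the shortest bin of length, and with the correction 2 were called and the median was 0.07. Atp5k, a subunit of ATP synthase (Entrez 11958, chromosome 5, 108433246 to 108434399, 356 bases), stood at 185, 192 and 186 FPKM in bisphenol EBs, against 126 FPKM in DMSO EBs, and at 180, 189 and 184 FPKM in bisphenol ESCs, against 195 FPKM in DMSO ESCs. It rose by 0.56 ± 0.09 (adjusted p = 0.0014) and by 0.43 with the correction (adjusted p = 0.025). Ndufv2, of complex I, rose by 0.38 (adjusted p = 0.02) and kept its call with the correction (0.33, adjusted p = 0.04), while Atp5l did not (0.30, adjusted p = 0.14). The 71 ribosomal protein genes had a median of 0.07, which became -0.01 with the correction.

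Some of the strongest upward calls came from genes with near-identical copies, between which estimated reads may be divided differently from library to library. Rpl37rt had 1278, 1339 and 1154 expected counts in bisphenol EBs, against 697 in DMSO EBs, and was called at 0.81. Its parent Rpl37 had 6403, 6305 and 6208 counts, against 6698 with DMSO, and the sums were 7681, 7644 and 7361 against 7394. The histone gene H2ac13 had 41, 35 and 38 counts with bisphenols against 6 with DMSO, while H2ac10 had 0, 5 and 6 against 38, and the sums were 41, 41 and 44 against 44. H2ac13 was called higher and H2ac10 lower, and neither the pair nor Rpl37 with its copy differed by more than the spread of the bisphenol libraries in sum. Rnaset2b, named after its values were seen, had 43, 27 and 59 counts against 9, beside 398, 419 and 378 against 386 for Rnaset2a, and here the sums were 441, 446 and 437 against 395, so that the DMSO EBs lay below the 3 bisphenol EBs in sum as well. Of the 14 tested members of the list of replication-dependent histone genes, which does not hold H2ac13, H2ac10 was the single called gene and the median was 0.46, with 4 below 0. The changes of Rpl37rt, H2ac13 and H2ac10 as single genes are therefore uncertain, and the size of that of Rnaset2b is.

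Lists on receptor and stress responses held few calls in EBs, where 2.16% of all genes were called and 1.96% were lower. Of 20 tested genes of the oestrogen and steroid receptor list, Esrrb alone was called and the median was -0.10. Esr2, oestrogen receptor beta, was at 0.12, 0.19 and 0.33 FPKM in bisphenol EBs, against 0.36 FPKM in DMSO EBs, and Greb1, an oestrogen target, at 0.76, 1.27 and 1.21 FPKM against 1.23 FPKM, neither called (adjusted p of 0.61 and 0.78). Nupr1 was the single called gene of 26 in the integrated stress response list. No member was called among 23 genes of the aryl hydrocarbon receptor and xenobiotic list, 24 p53 targets, 15 unfolded protein response genes, 22 immediate early genes, 25 interferon genes, 13 retinoic acid targets, 5 primitive streak genes and 4 genes of the 2-cell-like state as counted. With the correction 1 interferon gene, Ifitm1, was lower. At an unadjusted p under 0.05 these lists held 2, 5, 1, 7, 2, 1, 0 and 1 genes in the same order, beside 1892 of all 13931 genes. The 21 germline genes repressed by DNA methylation also held no call, with 8 at an unadjusted p under 0.05, beside the same 1892 of 13931. Of these germline genes 19 were below 0, with a median of -0.42, or -0.39 with the correction. The largest of their changes by p was Taf7l, at 1.20, 1.06 and 0.80 FPKM against 2.28 FPKM (-1.18, adjusted p = 0.064). Sums of trophoblast markers (939 to 986 FPKM with bisphenols, against 972 FPKM with DMSO) and of surface epithelial markers (293 to 312 FPKM, against 309 FPKM) enclosed the DMSO value, with Elf5 and Prl3d1 listed at 0 in EBs. None of the 7 trophoblast, 4 epithelial and 7 feeder markers tested was called, with medians of -0.19, -0.47 and -0.53, and of the 10 pluripotency markers 2 fell, Esrrb and Tfcp2l1, with a median of -0.12.

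The ESC libraries of day 0 gave no called gene in any list. The 5 smallest p-values belonged to Xlr4a, Pcdhgb5, Tdg, H2bc11 and Kdelr2, none past the threshold. Xlr4a, an X-linked lymphocyte-regulated family gene, stood at 12.7, 11.9 and 12.6 FPKM in bisphenol ESCs, against 7.12 FPKM in DMSO ESCs, and at 5.13, 6.55 and 6.05 FPKM in bisphenol EBs, against 6.78 FPKM in DMSO EBs. Its reads may be shared with near-identical family members. Tdg, a glycosylase of base excision repair, stood at 4.21, 4.32 and 3.96 FPKM in bisphenol ESCs, against 2.62 FPKM in DMSO ESCs. Kdelr2, an endoplasmic reticulum retention receptor, stood at 41.8, 42.8 and 45.1 FPKM against 34.8 FPKM. The histone gene H2bc11 was listed at 0 in DMSO ESCs and at 1.67 to 3.24 FPKM in bisphenol ESCs. Matrix genes had a median of 0.07 in ESCs. Without the BPS library of ESC day 0 a single gene model, Gm2026, was called lower.

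Whether the bisphenol change differed between the stages was tested directly, as the change at EB day 4 minus that at ESC day 0. This difference was called for 132 genes (0.948%), 123 of them negative (0.883%) and 9 positive (0.0646%), with 1711 at an unadjusted p under 0.05. Among them were Hspg2 (-1.25 ± 0.16), Ubr4 (-1.20 ± 0.16) and Herc2 (-1.04 ± 0.13), each with an adjusted p of 0.0017, and on the positive side Capn12 (0.89 ± 0.15, adjusted p = 0.0041) and Atp5k (0.65 ± 0.12, adjusted p = 0.0096). Herc2, a giant ubiquitin ligase, stood at 3.57, 4.08 and 3.93 FPKM in bisphenol EBs against 6.98 FPKM in DMSO EBs, and at 5.06, 5.61 and 6.19 FPKM in bisphenol ESCs against 4.96 FPKM in DMSO ESCs. Of the shorter genes Nupr1 (-1.65, adjusted p = 0.011), Klf5 (-0.83, adjusted p = 0.01) and Aqp3 (-1.62, adjusted p = 0.0032) were called. For Cubn the difference was -2.58 (adjusted p = 0.41), with almost no reads in ESCs. With the length correction 22 genes were called, 19 negative and 3 positive, and 20 of them were called in both fits. Hspg2, Ubr4, Capn12, Nupr1, Klf5 and Aqp3 were called with it, while Herc2 (-0.46, adjusted p = 0.09) and Atp5k (0.48, adjusted p = 0.16) were not. Without both BPF libraries 57 genes were called and without both BPS libraries 68.

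Compounds were compared with DMSO and with each other at the same dose and stages. Each against both DMSO libraries, BPA gave no called gene (0%), BPF none (0%) and BPS 1 (0.00718%). Unadjusted p-values under 0.05 numbered 483, 340 and 364, each a share below 0.05 of the 13931 genes tested. DESeq2 called Rpl36 with BPA and no gene with BPF or BPS. These comparisons share their DMSO libraries and have 3 residual degrees of freedom. In EBs the share of 9201 genes more than 1.5-fold away from DMSO was 2.25% with BPA, 1.47% with BPF and 1.96% with BPS, and in ESCs it was 0.206%, 0.13% and 0.196%. The genes called lower in EBs had medians of -0.55 with BPA, -0.49 with BPF and -0.49 with BPS there, and of 0.01, 0.05 and 0.18 in ESCs. The values in EBs were part of the choice of those genes and are a description, whereas the ESC libraries were not.

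The gene called for BPS was Fam177a, and it was also the single gene called in the pairs of BPA with BPS and of BPF with BPS. It had 203, 183 and 0 expected counts in the BPA, BPF and BPS EBs, against 194 in the DMSO EBs, and 0 in all ESCs. Its copy Fam177a2 had 147, 187 and 367 counts in the same EBs, against 195, and the sums were 351, 370 and 367 against 389. With both genes summed no gene was called for BPS or for either pair.

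The 3 pairs of compounds were tested together, with p-values adjusted over all genes and all pairs. BPA minus BPF, which differ by the methyl groups on the bridge, gave no called gene, with 228 at an unadjusted p under 0.05. BPA minus BPS and BPF minus BPS, in which a carbon bridge is set against a sulfonyl bridge, gave Fam177a alone, with 469 and 269 at an unadjusted p under 0.05. For all 3 pairs these counts are a share below 0.05 of the 13931 genes tested. The median absolute difference over 11964 genes at 1 FPKM or more was 0.07, 0.08 and 0.07 for the 3 pairs. The median half-width of the 95% interval was 0.24, so smaller differences could not be seen in most genes. These intervals are not adjusted over genes and pairs, so larger differences could also go uncalled. Greb1l, at -0.55 for BPA minus BPS (interval -0.81 to -0.3), was not called. For Lrp2 the difference was -0.05 for BPA minus BPF (interval -0.49 to 0.38), -0.22 for BPA minus BPS (-0.65 to 0.22) and -0.16 for BPF minus BPS (-0.60 to 0.27). For Hspg2 it was -0.07 (-0.55 to 0.42), -0.30 (-0.79 to 0.19) and -0.23 (-0.72 to 0.25) in the same order.

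Nearest to a difference between compounds came Rpl36, a protein of the large ribosomal subunit (Entrez 54217, chromosome 17, 56610094 to 56614246). It stood at 975 FPKM with BPA, 1530 with BPF and 1390 with BPS in EBs, against 1480 FPKM with DMSO. In ESCs it stood at 937 FPKM with BPA, 1470 with BPF and 1140 with BPS, against 1270 FPKM with DMSO. Both BPA libraries were the lowest of their stage and both BPF libraries the highest. BPA minus BPF was -0.63 (95% interval -0.81 to -0.45, adjusted p = 0.051 by edgeR), BPA minus BPS -0.38 (-0.56 to -0.20, adjusted p = 1) and BPF minus BPS 0.25 (0.07 to 0.43, adjusted p = 1). The first was called by DESeq2 (-0.63, adjusted p = 1.2e-06) and with the length correction (-0.65, adjusted p = 0.0033). Rpl36 has a transcript of 425 bases and has processed copies in the genome, so that its reads are uncertain. Meg3, an imprinted noncoding RNA, stood out in a single library, with 7.01, 31.4 and 12.6 FPKM in BPA, BPF and BPS EBs, against 10.8 FPKM in DMSO EBs, and 10.2, 9.10 and 12.9 FPKM in ESCs, against 12.0 FPKM. Its BPA minus BPF difference of -1.10 (-1.79 to -0.40) was not called (adjusted p = 1).

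The 24 libraries of the 6 later stages, 18 with bisphenols and 6 with DMSO, gave values from other libraries for the genes called in EBs of day 4. Whether the later cultures continue those of day 4 is not given in the labels. Over those stages 1149 of 15632 genes were called (7.35%), 495 higher (3.17%) and 654 lower (4.18%), and with the length correction 607 higher and 539 lower. Of the 273 genes called lower at EB day 4, 8 were lower (2.93%) and 5 higher (1.83%) in the later stages, and of the 28 called higher 0 were lower and 1 higher. Median changes of the 273 genes were -0.50 at EB day 4 in the fit of all 32 libraries, and by stage 0.09 in ESCs, -0.01 in EBs of day 6, 0.06 of day 9, -0.04 of day 12 and -0.16 of day 20, 0.12 in retinoic acid EBs and -0.04 in neural progenitors. The later shares lie near those of all genes. Stage by stage they did not in every case: of the 273 genes 26 were lower and none higher in neural progenitors, beside 303 and 49 of all 15632 genes. In EBs of day 12, 32 were lower and 44 higher, beside 1374 and 1577 of all. In EBs of day 20, 53 were lower and 29 higher, beside 1636 and 1428. The day 20 libraries also had a length trend against DMSO. Their median log2 ratio in the longest bin minus that in the shortest was -0.18 for BPA, -0.2 for BPF and -0.27 for BPS. Of the 273 genes, the 57 with transcripts of up to 5000 bases had a day 20 median of 0. Of these, 4 were lower and 8 higher. Whether the day 20 calls follow length was not tested. The difference between the 2 early stages and the 6 later ones was called for no gene, with 957 at an unadjusted p under 0.05 and a smallest adjusted p of 0.1. That contrast takes ESC day 0 and EB day 4 as 1 term, so it does not set EB day 4 alone against the later stages.

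Of the 50 named genes called at EB day 4, 3 were called in the same direction over the later stages and 1 in the opposite direction, a share close to the 7.35% of all genes. Lrp2 was lower over the later stages by -0.49 ± 0.11 (adjusted p = 0.0064), and by -0.45 with the length correction (adjusted p = 0.004). By stage its change was -0.86 in EBs of day 6, -0.50 of day 9, -0.80 of day 12 and -0.19 of day 20, 0.08 in retinoic acid EBs and -0.22 in neural progenitors. Esrrb was lower by -0.31 ± 0.09 (adjusted p = 0.04) and Srebf2, the transcription factor of cholesterol synthesis, by -0.18 ± 0.05 (adjusted p = 0.019), both also with the correction (adjusted p of 0.046 and 0.021). Igf2r, lower at EB day 4, was higher over the later stages by 0.44 ± 0.13 (adjusted p = 0.04). Hspg2 (-0.01), Fn1 (0.37), Cubn (-0.21) and Nupr1 (0.27) were not called there.

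**Figure D5:**
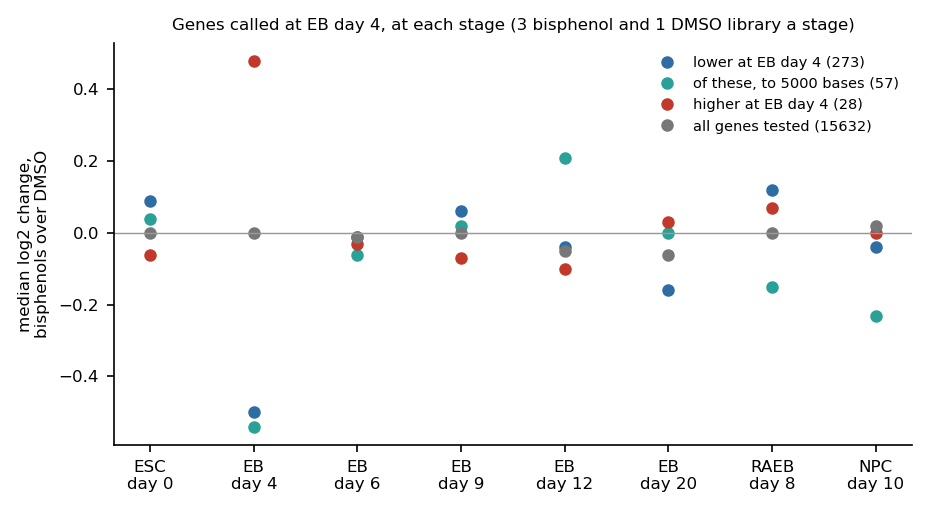
Median log2 change, bisphenols over DMSO, at each of the 8 stages for genes called lower at EB day 4 (273), those of them with transcripts of up to 5000 bases (57), genes called higher (28) and all genes tested (15632), from the fit of all 32 libraries with 3 bisphenol libraries and 1 DMSO library a stage. The values at EB day 4 (-0.50, -0.54 and 0.48) are fixed by the choice of genes, and at the other stages the medians lie between -0.23 and 0.21.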

How the data were processed

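The authors deposited per library, in columns of RSEM gene results, expected counts (estimated reads per gene), the transcript length in bases and FPKM. Per the submitters' processing notes Bowtie2, HISAT, RSEM and the build mm10 were used, and their versions, roles and any strand setting are not given in the sources used here. Per the labels' protocols RNA was extracted with Trizol and a Qiagen kit and libraries were made at BGI. Deposited FPKM start at 0.01, and unlisted genes were set to 0. No mitochondrially encoded gene was listed. Coordinates come from RefSeq GRCm38.p6, in which 20551 of 20612 Entrez identifiers were found, 9 more through a transcript, and 52 were not found. In the 8 libraries 79.3% to 80.5% of expected counts were whole.

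Expected counts were rounded and fitted in edgeR 4.0.16 (R 4.3.3) with TMM factors (0.978 to 1.022) and a quasi-likelihood test, for genes at 1 CPM in at least 2 of 8 libraries (13931), or 4 of 32 (15632). Models had a term for stage and for class (5 residual degrees of freedom), for treatment (3) or for stage by class (4). The last takes the single DMSO library of a stage to vary as the bisphenol libraries do. The calling threshold was an adjusted p of 0.05. The length correction subtracted a loess (span 0.3) of log2 ratio to the stage mean on log2 length. Alternatives were DESeq2 1.42.0, limma 3.58.1 with trend on log2(FPKM + 1) or + 0.1, other scalings and filters, all 32 libraries in the fit, and leaving out libraries. Sums over gene copies, a fit of genes of up to 5000 bases and the groups by stage change were chosen after seeing the data. Scripts were tested on simulated data. Genes were named by p among those called at a mean of 1 FPKM or above, 3 in each direction per comparison (10 over both stages together). Where fewer than 5 were called, the 5 smallest p-values were named. Each list gave up to 3 members. Unnamed gene models and pseudogenes were left aside. The members and the 33 lists, 5 of them cell type markers, were chosen with earlier results of these data known. Some genes that the naming rule picked are not reported here.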

Additional observations from a re-analysis of the deposited data

Results flagged for a closer look

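The change with bisphenols at EB day 4 differed from that at ESC day 0, by a test of the difference itself, for 132 genes, and 24 of the 104 named genes were among them. The log2 differences, EB day 4 minus ESC day 0, were negative for matrix genes Hspg2 (-1.25), Fn1 (-0.99) and Lama5 (-0.95), for the uptake receptors Lrp2 (-1.09) and Igf2r (-0.75), and for the ubiquitin ligases Ubr4 (-1.20) and Herc2 (-1.04). They were also negative for the cytoskeletal genes Dst (-1.30), Macf1 (-0.96), Nes (-0.63) and Flna (-0.52), for Tet1 (-0.86), Mki67 (-0.69) and Fasn (-0.64). Of shorter or ESC-high genes Nupr1 (-1.65), Klf5 (-0.83), Ndrg1 (-0.74) and Hk2 (-0.57) differed. The difference was positive for Capn12 (0.89), Atp5k (0.65), Bex4 (0.62) and Hspe1 (0.52), and for Rpl37rt (0.58) and H2ac13 (3.69), whose reads may be divided with a near-identical copy. With the length correction 22 of all genes differed between the stages, among them Hspg2, Fn1, Lama5, Ubr4, Nupr1, Klf5, Capn12 and H2ac13. The others of these 24 genes did not pass with it. Their values were such as -0.50 for Lrp2 (adjusted p = 0.16), -0.58 for Dst (adjusted p = 0.25), -0.31 for Tet1 (adjusted p = 0.24) and -0.26 for Fasn (adjusted p = 0.45). Outside the 24, the named gene Dnmt3l was called only with the correction (-0.70, adjusted p = 0.041, against 0.053 as counted).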

How the results depend on the processing

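The 301 calls at EB day 4 became 88 with all 32 libraries in the fit, 182 with DESeq2, 119 with the length correction, 19 with limma on log2(FPKM + 1), 140 without both BPF libraries and 60 in a fit of genes of up to 5000 bases. The 132 calls of the difference between stages became 25 with all 32 libraries, 22 with the length correction, 0 with limma, 57 without both BPF libraries, 68 without both BPS libraries and 13 among genes of up to 5000 bases. The fit of shorter genes was chosen after seeing the data. At ESC day 0 the count was 1 without both BPS libraries and 0 to 1 when each bisphenol library was left out. Over both stages it was 0 with all 32 libraries, the length correction, limma with either pseudocount, a mean CPM of 5 or more, and without both BPA or both BPF libraries, and leaving out 1 library gave 0 to 260.

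For BPA the count was 1 with DESeq2 and with the length correction and 2 without a filter on low counts, and for BPF 2 without the filter. For BPS it was 0 with all 32 libraries, DESeq2, limma or the Fam177a copies summed, and 3 without the filter. The pair BPA minus BPF gave 1 (Rpl36) with DESeq2, the length correction, a mean CPM of 5 or more, no filter and upper-quartile scaling. BPA minus BPS and BPF minus BPS gave 0 with all 32 libraries, DESeq2, limma and the copies summed, and 2 each without the filter, with 2 for BPF minus BPS after the length correction. Kcnq1ot1 (0.54) and Syne2 (0.04) turned positive at EB day 4 with the length correction, and Cubn over both stages (0.91) without the DMSO library of EB day 4, where leaving out 1 library gave -1.76 to 0.91.

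Of 47 called genes named for EB day 4 or from the lists, 35 were no longer called with all 32 libraries, 36 with limma, 13 with DESeq2 and 15 with the length correction, in the same direction, besides the 2 that turned with that correction. Other scalings and filters cost at most 5 and leaving out a compound at most 20. Counts over the later stages stayed within 1.5 times under every alternative run. Why the counts moved was not tested, beyond the smaller numbers of libraries or genes that some alternatives have by construction. Since 1 DMSO library a stage carries each contrast, no alternative can leave it out within a stage. No paired analysis was possible because each group holds a single library and replicate numbers pair nothing.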
